A study of Mus musculus with 77 samples.

Results

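The growth hormone (GH) and insulin-like growth factor (IGF) axis of mouse liver was followed through 10 of the 25266 genes in the count files. They are the receptor genes Ghr, Prlr and Lifr, the signal transducer gene Stat5b, the feedback inhibitor genes Socs2 and Cish, and Igf1, Igfals, Igfbp1 and Igfbp2, which encode secreted proteins of the IGF system. All 10 passed the filter on low counts, as did 10696 genes in all. Over the interval from ZT5 to ZT12, Stat5b fell by 0.70 on the log2 scale in RNA (SE 0.090, 12 livers per timepoint) and by 0.53 in ribosome-protected fragments, and Ghr rose by 0.26 and 0.18. Loss of IRP1 or IRP2 left these 10 genes without a call in RNA, and in ribosome-protected fragments 1 was called, Lifr, which was lower in Ireb2-/- livers at ZT5, a call lost in 4 of 12 fits that left out 1 mouse.

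GH is released from the pituitary in pulses in male rodents. In hepatocytes it binds the GH receptor, the kinase JAK2 phosphorylates the receptor and the transcription factors STAT5A and STAT5B, and STAT5 enters the nucleus and activates genes such as Igf1, Igfals, Socs2 and Cish. The SOCS family proteins SOCS2 and CISH then dampen receptor signalling, so their mRNAs are used as short-lived reporters of a recent GH pulse. Liver IGF1 circulates mostly in a complex with an IGF-binding protein and IGFALS, while IGFBP1 is a short-lived binding protein that rises in fasting and falls with insulin.

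The livers came from adult male mice aged 12 to 24 weeks on a C57BL/6J background, kept in LD12:12 with food at all times and killed at Zeitgeber time ZT5, in the light phase, or ZT12, at lights off. In 1 line the gene for iron regulatory protein IRP1 was disrupted in all tissues (allele Aco1tm1.1Mwh; Aco1-/- against Aco1+/+), and in the other that for IRP2 (allele Ireb2tm1.2Mwh; Ireb2-/- against Ireb2+/+). Each of the 8 groups held 3 mice, and each of the 24 livers gave a total RNA library (RNA) and a library of ribosome-protected fragments (RPF), the pieces of mRNA that a ribosome shields from RNase I. The study asked how the day-time regulation of mRNAs with iron-responsive elements depends on each IRP, and the same libraries report the GH and IGF genes. Translation efficiency (TE) is the ratio of RPF to RNA for a gene, and levels are CPM, counts scaled to a common library size, in the coding sequence (CDS), with upper-quartile scaling. As no CDS lengths were used, levels are compared between livers and not between genes.

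CDS counts per library ran from 852293 to 3993492 in RNA and from 2448915 to 13439600 in RPFs, and the RNA and RPF library of a mouse matched each other best in 24 of 24 mice. Aco1 RPFs were 74.8 to 123.2 CPM in the 6 Aco1-/- livers and 347.1 to 622 in the 18 others, and Ireb2 RPFs were 32.5 to 41.2 CPM in the 6 Ireb2-/- livers and 55.8 to 81.4 in the others, so the knockout labels held for every mouse. These values do not check the timepoint labels. Both alleles still gave mRNA. The Ireb2+/+ ZT5 replicate 3 liver stood apart. Its log2 deviations from the group mean had an SD of 0.56 in RNA and 0.501 in RPFs, against at most 0.339 and 0.39 in the other livers, and calls that it decides are given with and without it. All 6 hepatocyte markers were detected in every group, with summed RNA of 9.05e+04 to 1.49e+05 CPM. Of the other cell types, 1 of 4 cholangiocyte markers was lower at ZT12 in RNA (12.5% of all genes) and 3 of 4 in RPFs (18.2%). Summed cholangiocyte RNA was 16.8 to 53.8 CPM at ZT5 and 9.16 to 28.4 CPM at ZT12. In RNA 2 of 6 hepatocyte markers were higher (9.71% of all genes), 2 of 5 pericentral markers higher and 1 lower. Of the periportal and endothelial markers, 1 of 5 and 1 of 6 were lower in RNA. In RPFs 3 of 6 hepatocyte markers were higher (13.6% of all genes), 2 of 5 pericentral markers higher and 1 lower. Of 5 periportal markers 1 was higher and 1 lower, and 2 of 6 endothelial, 1 of 6 stellate and 1 of 5 erythroid markers were lower. Their part in the time differences below was not tested. In such bulk samples, fewer cells of a type and less RNA per cell cannot be told apart.

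In build GRCm38.p6 the 10 genes are spread over the autosomes, with the receptor genes all on chromosome 15, Ghr (ENSMUSG00000055737) at chr15:3317755-3583352, Prlr (ENSMUSG00000005268) at chr15:10177238-10349190 and Lifr (ENSMUSG00000054263) at chr15:7090610-7197489. The signalling genes are Stat5b (ENSMUSG00000020919) at chr11:100780731-100859004, Socs2 (ENSMUSG00000020027) at chr10:95383903-95417321 and Cish (ENSMUSG00000032578) at chr9:107296659-107302784, and those of the IGF system Igf1 (ENSMUSG00000020053) at chr10:87858265-87937047, Igfals (ENSMUSG00000046070) at chr17:24877844-24882011, Igfbp1 (ENSMUSG00000020429) at chr11:7197787-7202546 and Igfbp2 (ENSMUSG00000039323) at chr1:72824480-72852474.

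Promoter sequence was available for 9 of the 10 genes, in 17 windows of 300 bases (250 before and 50 after an annotated start, from RefSeq, build GRCm38.p6). The windows were searched for the STAT5 consensus TTCNNNGAA, which reads the same on both strands, for the insulin response motif CAAAACA on both strands, which FOXO1 binds, and for the E-box CACGTG that clock proteins bind. Of all 32851 such windows, 8.3% held TTCNNNGAA, 6.28% CAAAACA and 7.15% CACGTG, and of the 27025 genes with a window, 9.55%, 7.2% and 8.09% held them in at least 1. Among the 9 genes, 3 held the STAT5 motif (Prlr, Cish and Igfals), 2 the insulin response motif (Prlr and Igfbp1) and 1 the E-box (Igfbp2). The stretches with STAT5 motifs, and that of Igfbp1, are shown because GH acts through STAT5 and insulin through FOXO1. All lie on the plus strand and capitals mark the motif.
Cish, chr9:107296654-107296683: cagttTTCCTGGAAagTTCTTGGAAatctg
Prlr, chr15:10223786-10223814: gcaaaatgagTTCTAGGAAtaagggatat
Igfals, chr17:24877598-24877626: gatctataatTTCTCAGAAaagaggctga
Igfals, chr17:24878163-24878191: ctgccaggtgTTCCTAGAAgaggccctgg
Igfbp1, chr11:7197668-7197696: gagctcacaagCAAAACAaacttattttg
Cish was the only one of the 9 genes with 2 matches in 1 window, and the first of them began at the annotated gene start, position 107296659. A match is a description of the letters, and no binding was measured.

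The comparison of ZT12 with ZT5 over all 24 livers asks which of these genes differ between the middle of the light phase and lights off. By edgeR's quasi-likelihood test with Benjamini-Hochberg adjustment over all genes, 2 of the 10 passed an adjusted p of 0.05 in RNA, Stat5b (lower) and Ghr (higher), and the same 2 in RPFs. Of all genes tested, 22.3% passed in RNA (9.71% higher and 12.5% lower at ZT12) and 31.8% in RPFs (13.6% higher and 18.2% lower), so the share among these 10 genes is not a result about them. In TE 0 of the 10 passed, 0 had an unadjusted p under 0.05 and DESeq2 called 0, against 0.486% of all genes called (0.365% higher and 0.122% lower). Of all 10696 genes, 1005 had an unadjusted p under 0.05 in TE. The smallest adjusted p in TE was 0.556, for Prlr. For Stat5b, the TE change was 0.17 in the exact permutation test of single values (unadjusted p = 0.0353, higher at ZT12 in 4 of 4 genotypes) and did not pass in the fit across all genes (adjusted p = 0.678). Igf1 was close to the threshold in both assays and passed under TMM scaling and with DESeq2.

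**Figure D1:**
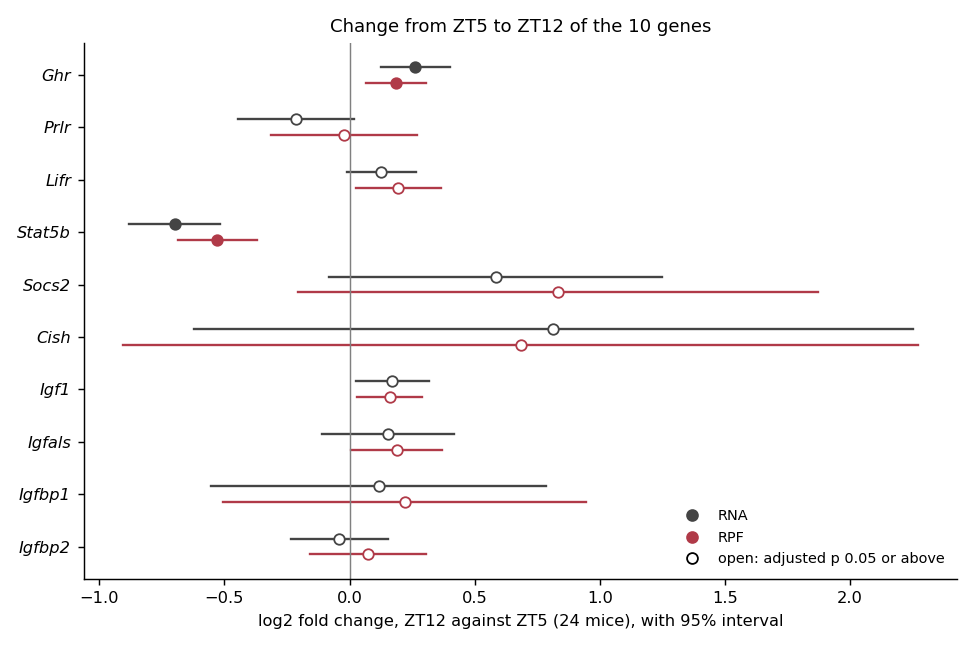
Log2 fold change from ZT5 to ZT12 of the 10 genes in RNA (dark) and RPFs (red) (x axis), with 95% intervals from the edgeR fit over 24 livers. Filled points passed an adjusted p of 0.05. Stat5b lies at -0.70 in RNA and -0.53 in RPFs and Ghr at 0.26 and 0.18, while the intervals of Cish are the widest in both assays.

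Stat5b encodes the main GH-activated transcription factor of male liver. Its RNA level was 33.5, 43.9 and 56.4 CPM (lowest, median and highest of 12 livers) at ZT5 and 19.6, 28.3 and 33.6 CPM at ZT12. Its RPF level was 27.3, 32.7 and 36.6 CPM at ZT5 and 18.8, 22.2 and 27.4 CPM at ZT12. Over all livers the 2 timepoints met only at the edge of their ranges, and within genotypes they were apart in 3 of 4 in RNA and in 4 of 4 in RPFs. Of all genes, 1.77% were lower at ZT12 with no overlap in all 4 genotypes in RPFs (1.34% in RNA), and 3.91% in at least 3 of 4 in RNA (5.42% in RPFs). The fold from ZT5 to ZT12 was 0.616 in RNA (95% interval 0.543 to 0.698, adjusted p = 1.24e-07 by edgeR) and 0.693 in RPFs (0.622 to 0.773, adjusted p = 5.29e-06). The exact permutation test over 160000 relabellings within genotypes gave a two-sided p of 2.5e-05 in RNA and 1.25e-05 in RPFs, the smallest it can give. Both calls held in each of the 24 fits that left out 1 mouse. The fall stood in the 3′ UTR of the RNA as well, by 0.64 on the log2 scale (exact permutation p = 3.75e-05).

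Genotype by genotype, Stat5b RNA changed most in Aco1+/+ livers. There it was 43.9, 50.9 and 56.4 CPM at ZT5 and 20.5, 23.9 and 27.7 CPM at ZT12, a log2 change of -1.06 (SE 0.184, adjusted p = 0.000199 by edgeR, 7.05% of all genes called). In Aco1-/- livers it was 36.1, 48.2 and 41.2 CPM against 29.5, 23.1 and 30.5 CPM (-0.62, adjusted p = 0.0416, 5.15% called), and in Ireb2-/- livers 41.7, 46.2 and 37.3 CPM against 25.8, 19.6 and 30.8 CPM (-0.72, adjusted p = 0.0268, 2.77% called). In Ireb2+/+ livers the values were 43.9, 46.6 and 33.5 CPM against 33.6, 31.3 and 29.0 CPM, and the change of -0.40 did not pass (adjusted p = 0.265, 2.29% called). Without the replicate 3 liver that stood apart it was -0.52 (adjusted p = 0.114). These within-genotype values do not show that the genotypes differ, since the difference itself, tested as an interaction, did not pass in either line. The Aco1+/+ call in RNA held in all 12 fits that left out 1 mouse, and the other Stat5b calls within genotypes passed in 4 to 8 of 12. In RNA the Aco1-/- call was lost without replicate 2 or 3 at ZT5 or replicate 1 or 2 at ZT12 of Aco1-/- livers, or without Aco1+/+ replicate 1 or 2 at ZT5 or 2 or 3 at ZT12 (-0.49 to -0.65), and the Ireb2-/- call without replicate 1 or 2 at either time (-0.57 to -0.74). TMM scaling ended the Aco1-/- call (adjusted p = 0.0605), and DESeq2 and the first run alone ended both (0.051 to 0.212). In RPFs, Stat5b changed by -0.60 in Aco1+/+ livers (adjusted p = 0.0237), -0.50 in Aco1-/- livers (0.0428), -0.62 in Ireb2-/- livers (0.0273) and -0.40 in Ireb2+/+ livers (0.13), or -0.50 (0.0852) without the replicate 3 liver. The Aco1+/+ call was lost without replicate 1 or 2 at either time (-0.51 to -0.65), and the Ireb2-/- call without replicate 2 or 3 at ZT5 or 1 or 2 at ZT12 (-0.52 to -0.62). The Aco1-/- call was lost without replicate 1 or 2 at ZT5 or 2 or 3 at ZT12 of that genotype, or without Aco1+/+ replicate 1 at ZT5 or 2 or 3 at ZT12 (-0.44 to -0.50), and with TMM scaling (adjusted p = 0.0547), DESeq2 (0.0692) or no filter (0.0581). The first run alone ended all 3 RPF calls (0.0552 to 0.237).

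**Figure D2:**
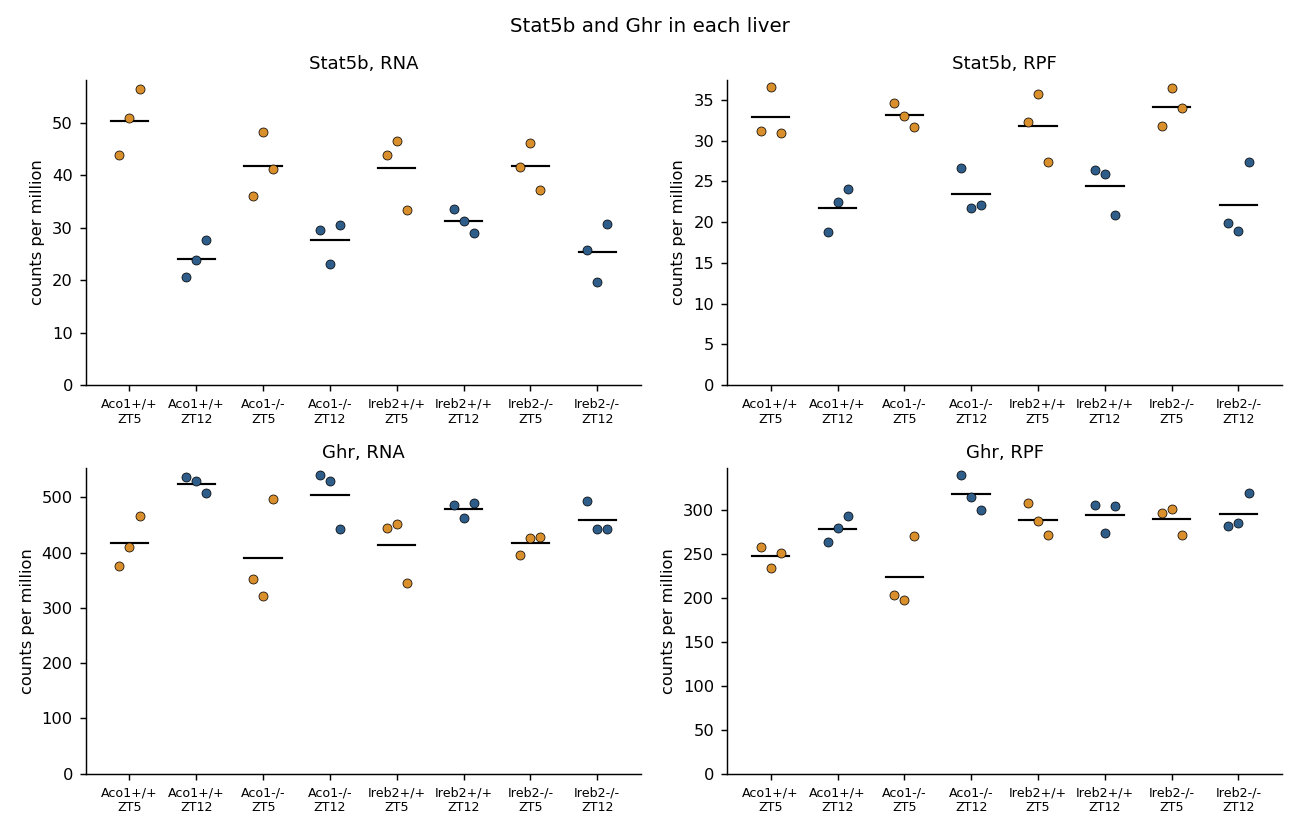
Stat5b and Ghr in each of the 24 livers, RNA and RPFs, in CPM (y axis) by genotype and timepoint (x axis), with bars at the group means, orange points for ZT5 and blue for ZT12. Stat5b RPFs at ZT5 lie above those at ZT12 in each genotype, and Ghr RNA has a median of 417.9 CPM at ZT5 and 490.8 CPM at ZT12.

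Ghr encodes the GH receptor itself. Its RNA level was 322, 417.9 and 497 CPM (lowest, median and highest) at ZT5 and 443, 490.8 and 541 CPM at ZT12, and its RPF level was 197, 271 and 308 CPM at ZT5 and 263, 297 and 340.1 CPM at ZT12. The ranges overlapped over all livers, with the mean higher at ZT12 in 4 of 4 genotypes in both assays and groups apart in 3 genotypes in RNA and 2 in RPFs. At least 3 of 4 genotypes were apart with the higher values at ZT12 in 3.4% of all genes in RNA and 4.7% in RPFs, and all 4 in 1.14% and 1.88%. The log2 change was 0.26 in RNA (95% interval 0.13 to 0.40, adjusted p = 0.00397 by edgeR, exact permutation p = 0.0004) and 0.18 in RPFs (0.07 to 0.30, adjusted p = 0.0163, exact permutation p = 0.00496). Both calls held in each of the 24 fits without 1 mouse.

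The SD of Ghr within groups was 0.167 on the log2 scale in RNA and 0.120 in RPFs, a spread that 91.2% and 95.7% of all tested genes reached or exceeded. Among genes within 0.5 log2 units of its level, 55.4% of 175 reached it in RNA and 80.6% of 324 in RPFs. Within genotypes, 1 change passed the test. In Aco1-/- livers Ghr RPFs were 204, 197 and 270 CPM at ZT5 and 340.1, 314 and 300.1 CPM at ZT12 (log2 change 0.51, SE 0.140, adjusted p = 0.0238 by edgeR, 12.1% of all genes called). This call was lost without Aco1-/- ZT5 replicate 1 or 2 or ZT12 replicate 1 or 2, with log2 changes of 0.43 to 0.52, and with the first run alone (adjusted p = 0.059), all columns summed (0.39, 0.0771) or only the 6 mice compared (0.0796). Knockout and control did not pass in either line: the log2 difference in RNA at ZT5 was -0.10 (95% interval -0.40 to 0.21) for Aco1 and 0.01 (-0.24 to 0.26) for Ireb2, or -0.10 (-0.34 to 0.13) without the Ireb2+/+ replicate 3 liver that stood apart.

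Prlr encodes the prolactin receptor, which in liver also signals through STAT5 and whose own expression is under GH control. Over all livers its RNA level was 20.3, 34.3 and 74.9 CPM and its RPF level 30.4, 49.3 and 88.5 CPM (lowest, median and highest of 24). The time comparison did not pass in RNA (-0.21, adjusted p = 0.18 by edgeR) or in RPFs (-0.02, adjusted p = 0.924), where the sign turned under TMM scaling (0.0017) and with DESeq2 (0.0103). The widest Prlr values came from Aco1-/- livers at ZT5. Their RNA was 49.2, 74.9 and 36.4 CPM, against 33.8, 27.99 and 20.3 CPM in Aco1+/+ livers, and the groups did not overlap (9.4% of all genes). The fold was 1.94 (95% interval 1.43 to 2.64, unadjusted p = 0.000117, adjusted p = 0.314 by edgeR), so this difference failed the correction. From ZT5 to ZT12 in Aco1-/- livers Prlr RNA went from these values to 28.5, 34.04 and 32.1 CPM (log2 change -0.75, SE 0.214, adjusted p = 0.035), a call that rests on the liver at 74.9 CPM: without it the change was -0.40 (adjusted p = 0.342). The call was also lost without ZT5 replicate 1 or any 1 of the ZT12 livers, with changes of -0.71 to -0.81, and with DESeq2 (adjusted p = 0.0744), the first run alone (0.0809), all columns summed (-0.49, 0.128) or only the 6 mice compared (0.0607). RPFs of the same livers were 48.1, 88.5 and 39.8 CPM at ZT5 and 64.1, 53.9 and 57.5 CPM at ZT12 (log2 change 0.0039, adjusted p = 0.995), and the TE change of 0.73 did not pass (adjusted p = 0.169).

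Lifr encodes the receptor for leukemia inhibitory factor, a class I cytokine receptor that pairs with gp130 and signals through JAK kinases and STAT3. Comparisons of knockout with control livers ask what each IRP contributes at a given time. Lifr RPFs in Ireb2-/- livers at ZT5 were 264, 301.4 and 303 CPM and in Ireb2+/+ livers 439, 500.5 and 541 CPM. All knockout livers lay below all controls. Of all genes, 15.9% did not overlap between these groups, in either direction. The fold was 0.586 (95% interval 0.492 to 0.698, adjusted p = 0.0122 by edgeR), 1 of 7 genes called in that comparison (0.0654% of those tested). In RNA the same livers had 346, 327 and 369.9 CPM against 401.5, 479.9 and 373 CPM, a fold of 0.832 that did not pass (adjusted p = 0.837), and the TE change was -0.50 on the log2 scale (SE 0.103, adjusted p = 0.0625). With the paired TE model under TMM scaling or without the filter on low counts, the adjusted p of the TE change was 0.0485 and 0.0307.

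This call depends on single livers. Without the Ireb2+/+ replicate 3 liver that stood apart, whose Lifr RPFs were the highest of its group and RNA the lowest, the log2 change in RPFs was -0.70 (adjusted p = 0.0961) and in TE -0.36 (adjusted p = 0.223). The RPF call was also lost without Ireb2+/+ replicate 2 or Ireb2-/- replicate 1 or 2, with changes of -0.71 to -0.80, and kept its direction in every such fit. DESeq2 gave an adjusted p of 2.21e-05. At ZT12, Lifr RPFs were 397, 453 and 329 CPM in Ireb2-/- livers and 504, 521 and 481 CPM in Ireb2+/+ livers, again apart (10.6% of all genes), with a log2 change of -0.35 that did not pass (adjusted p = 0.46). The difference between the timepoints was 0.42 in RPFs (95% interval 0.06 to 0.77) and did not pass after adjustment (adjusted p = 1). Without the liver that stood apart it was 0.35, with an interval of -0.02 to 0.72 that takes in 0.

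In the Aco1 line at ZT5 the Lifr levels of knockout livers also lay below those of controls, without passing the test. RNA was 358, 463 and 435 CPM in Aco1-/- livers against 693, 690.5 and 572 CPM in Aco1+/+ livers, and RPFs were 264, 435 and 414 CPM against 605, 591 and 491 CPM. The groups were apart in both assays (9.4% of all genes in RNA and 7.62% in RPFs). The log2 change was -0.64 in RNA (SE 0.152, unadjusted p = 0.000174, adjusted p = 0.373 by edgeR) and -0.60 in RPFs (adjusted p = 1). From ZT5 to ZT12 over all livers Lifr RPFs changed by 0.20 (adjusted p = 0.0737), which passed under TMM scaling (adjusted p = 0.0483) and with DESeq2 (0.0454), and without Aco1-/- ZT5 replicate 2 or ZT12 replicate 3 or Ireb2-/- ZT12 replicate 3 (0.22 to 0.23). Within Ireb2-/- livers the rise in RPFs passed (0.44, SE 0.121, adjusted p = 0.0354, 5.73% of all genes called), but not without any 1 of the 3 ZT5 livers or without ZT12 replicate 1 or 2 (0.33 to 0.48). In Aco1+/+ livers the change was of the other sign and did not pass, at -0.32 in RNA (adjusted p = 0.219) and -0.15 in RPFs (adjusted p = 0.714).

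**Figure D3:**
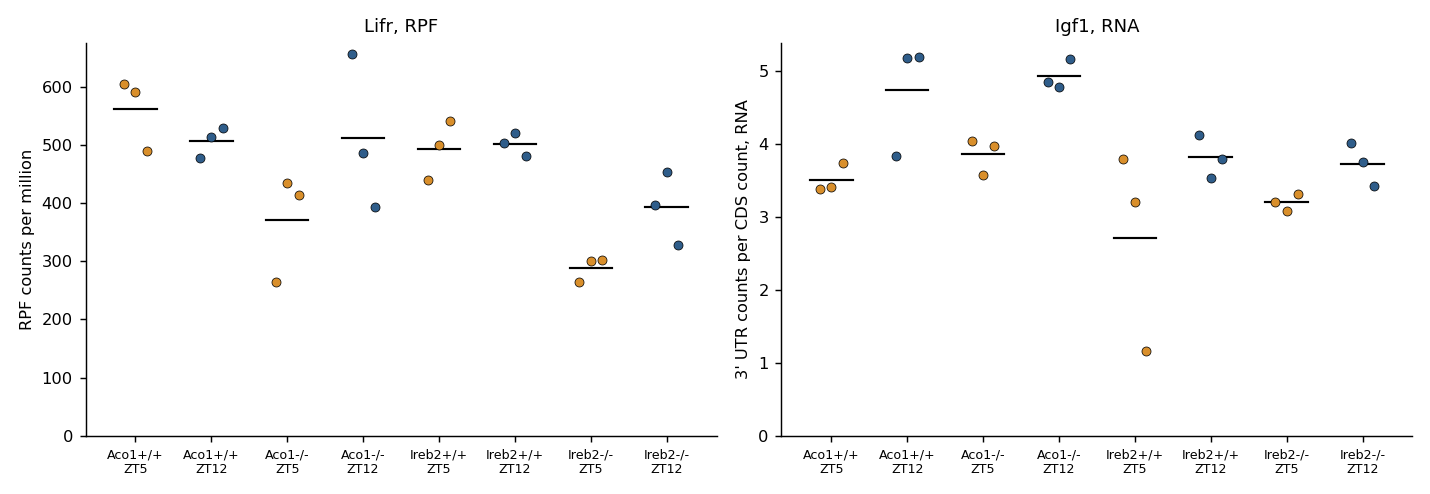
Left, Lifr RPFs in CPM (y axis) in each of the 24 livers by genotype and timepoint (x axis). Right, Igf1 counts in the 3′ UTR per count in the CDS of the RNA library of each liver. Bars mark group means, with ZT5 in orange and ZT12 in blue. Ireb2-/- livers at ZT5 lie at 264 to 303 CPM and their controls at 439 to 541 CPM, and the Igf1 ratio has a median of 3.40 at ZT5 and 4.07 at ZT12 with 1 low liver at 1.16.

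Cish encodes a SOCS family protein and is among the quickest STAT5 targets. It was the most uneven of the 10 genes. Its RPF level ran from 0.653 to 66.2 CPM over the 24 livers, a range of 101.4-fold, and both ends lay in 1 group: the Aco1-/- ZT12 livers had 0.653, 66.2 and 4.88 CPM. The SD within groups was 2.02 on the log2 scale in RPFs, which 0.234% of all tested genes reached (median gene 0.274), and 2.09 in RNA, which 0.224% reached. Among the 1718 genes with an RPF level within 0.5 log2 units of Cish, 0.116% were as uneven.

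The Cish values of a liver agreed between its 2 libraries. In RNA, the Aco1-/- ZT12 livers had 1.02, 15.0 and 1.63 CPM, with the same liver highest, and the Ireb2+/+ ZT5 livers had 0, 12.3 and 0.577 CPM in RNA and 2.51, 40.3 and 1.82 CPM in RPFs. Where RNA was at 0 (2 of 24 libraries), 3 counts would be 0.828 and 1.97 CPM, so a level up to there was not detectable. Over 24 livers, with group means removed, RNA and RPF deviations correlated with Pearson's r = 0.864 (permutation p = 0.00013, adjusted over 10 genes 0.0012) and Spearman's rho = 0.908 (permutation p = 6e-05), and r was 0.826 without the 2 livers farthest from the median. RNA counts were few, with a median of 5.5 per library against 50.5 in RPFs.

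**Figure D4:**
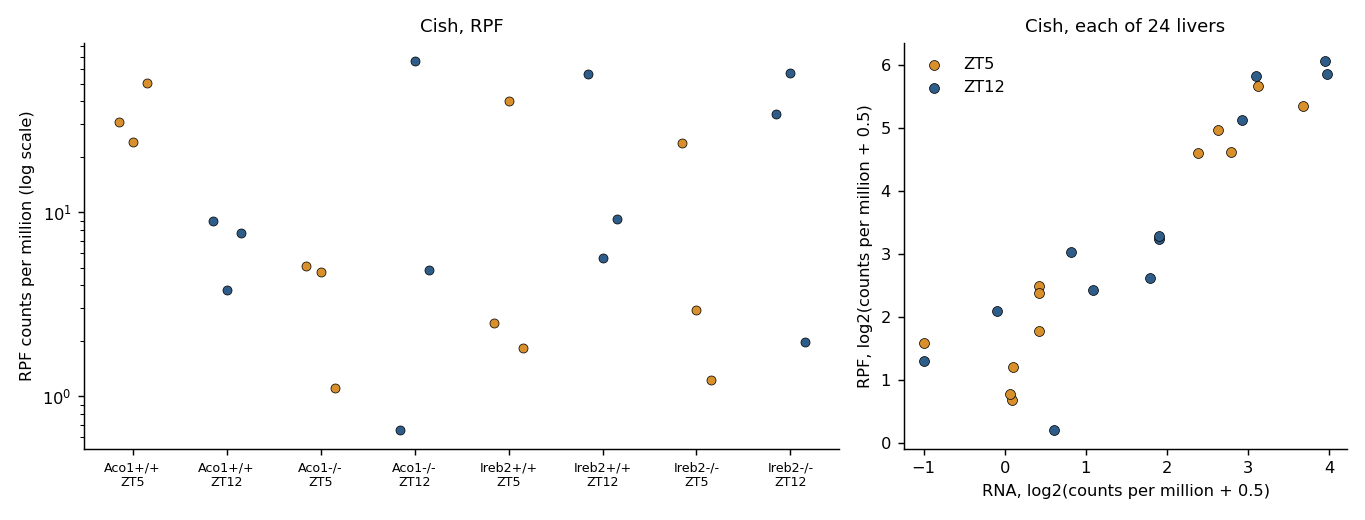
Left, Cish RPFs in CPM on a log axis (y axis) in each of the 24 livers by genotype and timepoint (x axis). Right, Cish RPFs (y axis) against RNA (x axis), both as log2(CPM + 0.5), 1 point per liver, orange for ZT5 and blue for ZT12. Values span 0.653 to 66.2 CPM in RPFs, and livers high in RNA are high in RPFs.

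The Cish group differences were large and uncertain. In Aco1+/+ livers at ZT5 the level was even, at 5.71, 6.399 and 8.24 CPM in RNA and 30.9, 24.1 and 50.5 CPM in RPFs. Aco1-/- livers at ZT5 lay below them throughout, at 0.840, 0.835 and 0.564 CPM in RNA and 5.11, 4.72 and 1.11 CPM in RPFs. These RNA values rest on 2, 4 and 2 CDS counts, close to the 3 counts used above as a detection limit. Of all genes, 9.4% did not overlap there in RNA and 7.62% in RPFs. The log2 change of Cish was -3.09 in RNA (SE 0.962, adjusted p = 1 by edgeR over the 12 mice of the line), and the RPF change did not pass in that fit either. Fitting only the 6 mice compared gave -3.09 in RNA with an adjusted p of 0.00657, and -3.13 in RPFs with 0.0231. In the same 6-mouse setting Cish fell from ZT5 to ZT12 in Aco1+/+ livers, by 2.21 in RNA (adjusted p = 0.00232) and 2.30 in RPFs (0.000974), where the fit over 12 mice gave an adjusted p of 0.179 in RNA. For other members the 6-mouse setting both ended and added calls on the time change. Calls ended for Prlr and Stat5b RNA and Stat5b and Ghr RPFs in Aco1-/- and Lifr RPFs in Ireb2-/- livers (adjusted p of 0.0577 to 0.0901). In Aco1+/+ livers it added Igfbp1 RPFs (1.51, adjusted p = 0.0135 by edgeR) and Igfbp2 TE (0.44, 0.0239). The difference between the timepoints in the Aco1 effect on Cish was 5.34 in RNA (95% interval 2.52 to 8.16, adjusted p = 0.746). It moved with 1 liver. Aco1-/- livers at ZT12 had 1.02, 15.0 and 1.63 CPM against 3.22, 0.434 and 1.26 CPM in controls, and without the liver at 15.0 CPM (replicate 2) it was 3.15 (1.08 to 5.22, adjusted p = 0.277), the ZT12 change went from 2.25 to 0.06, and the ZT5 change of -3.09 passed in the fit over the other mice of the line (adjusted p = 0.0394). In RPFs, without that liver, the ZT5 change was -3.13 and did not pass (adjusted p = 0.586 by edgeR). Over 24 livers the time comparison did not pass (RNA 0.82, adjusted p = 0.437, RPFs 0.68, adjusted p = 0.529), and in RPFs it ran from -0.119 without Aco1-/- ZT12 replicate 2 to 1.395 without Ireb2+/+ ZT5 replicate 2.

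Socs2, the other feedback inhibitor, gave 127 CDS counts in all RNA libraries together and 77 in all RPF libraries. Its RNA level was 0.282, 1.58 and 6.13 CPM (lowest, median and highest) and its RPF level 0, 0.486 and 1.25 CPM, with 6 RPF libraries at 0, where 3 counts would be 0.391 to 0.885 CPM. The time comparison did not pass in RNA (0.58, 95% interval -0.08 to 1.25, adjusted p = 0.211 by edgeR) or in RPFs (0.83, adjusted p = 0.222), where it passed without Ireb2+/+ ZT5 replicate 2 (1.65, adjusted p = 0.0486). In Aco1 livers at ZT5 the RNA level was 0.420, 1.25 and 0.282 CPM in knockouts and 1.76, 6.13 and 2.54 CPM in controls, apart as for Cish (9.4% of all genes), with a log2 change of -2.33 (SE 0.635, unadjusted p = 0.000818, adjusted p = 0.972). The knockout values rest on 1, 6 and 1 CDS counts.

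Socs2 and Cish, both read as traces of a GH pulse, deviated from their group means together. Over 24 livers Pearson's r in RNA was 0.559 (permutation p = 0.0025, adjusted over 6 pairs 0.015), Spearman's rho 0.559 (permutation p = 0.00586), and r without the 2 livers farthest from the median was 0.664. Within ZT5 alone r was 0.429 and within ZT12 alone 0.706, neither passing after adjustment. With the counts of all columns summed, a column of unknown meaning among them, r was 0.744. This alternative was chosen after seeing the data. The other 5 pairs tested (Igf1 with Igfals, Ghr with Igf1, Lifr and Prlr, and Igfbp1 with Igfbp2) did not pass, with adjusted p of 0.147 to 0.381 and r of -0.518 to 0.439. Points of a pair share a library, hence its depth.

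Few Socs2 RPFs fell in the CDS. Of the RPFs in its 5′ UTR and CDS, 688 lay in the 5′ UTR and 77 in the CDS, or 89.9% in the 5′ UTR, and the 5′ UTR held more than the CDS in 24 of 24 libraries (75.0% to 100% in the 20 libraries with at least 10 such counts). The median gene had 2.15% there, and 0.0777% of 9006 genes with enough RPFs reached the share of Socs2. In RNA the 5′ UTR share of Socs2 was 62.2%. The share was alike at both timepoints, 90.1% at ZT5 and 89.8% at ZT12, and the low TE of its CDS, a median of -1.53 on the log2 scale, is taken over the CDS alone. Of the other members, Ghr (10.96%), Prlr (9.32%) and Stat5b (9.18%) had the highest 5′ UTR shares. Igfbp1 (3.90%), Igf1 (3.89%) and Cish (3.52%) were also above the median gene, and Lifr (1.60%), Igfbp2 (0.792%) and Igfals (0.729%) were below it. In RefSeq a lncRNA gene, Gm33230, overlaps Socs2, and lncRNA genes overlap Ghr, Prlr, Igf1 and Igfals as well. Whether counting used the strand is not given in the sources used here, so their reads cannot be told apart.

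**Figure D5:**
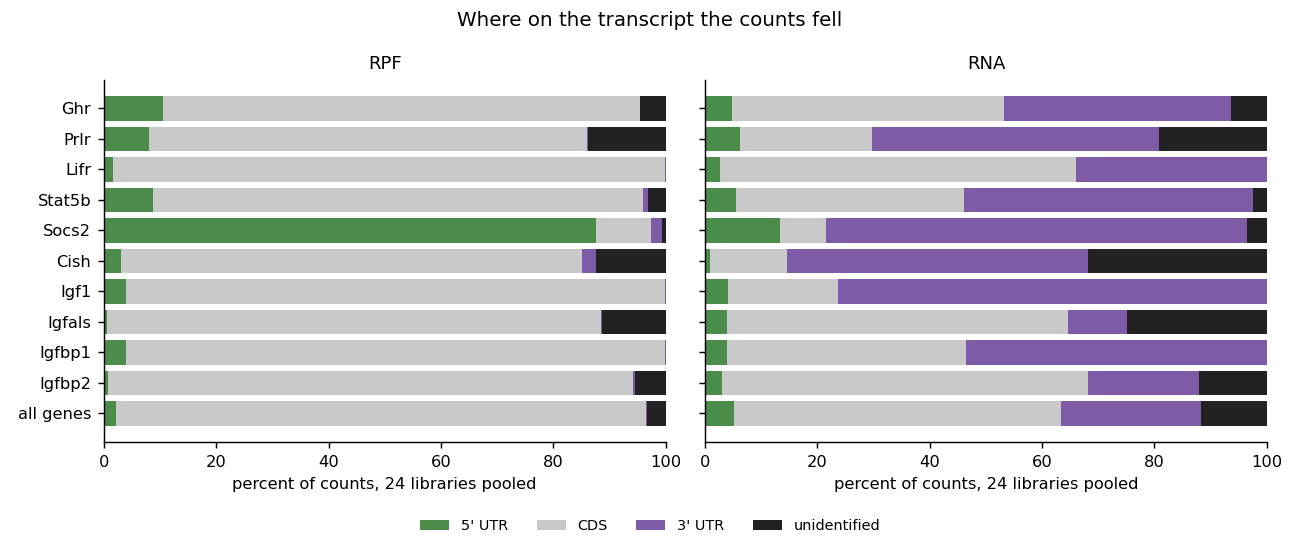
Percent of counts (x axis) of each of the 10 genes, and of all genes, in the 5′ UTR, the CDS, the 3′ UTR and a column of unknown meaning, pooled over 24 RPF libraries (left) and 24 RNA libraries (right). Socs2 RPFs lie mostly in the 5′ UTR (87.6%), those of the other 9 genes mostly in the CDS, and 76.4% of Igf1 RNA counts lie in the 3′ UTR.

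Igf1 encodes the circulating growth factor itself. Its CDS level in RNA was 171, 193 and 264 CPM at ZT5 and 191, 219.9 and 275 CPM at ZT12 (lowest, median and highest), and in RPFs 401, 449.5 and 647 CPM at ZT5 and 407, 566.5 and 613 CPM at ZT12. The ranges overlapped widely. The log2 change was 0.17 in RNA (SE 0.072, adjusted p = 0.0824 by edgeR, exact permutation p = 0.0243) and 0.16 in RPFs (SE 0.064, adjusted p = 0.058, exact permutation p = 0.0576). Without the replicate 3 liver that stood apart, the change was 0.22 in RNA (adjusted p = 0.0183) and 0.15 in RPFs (adjusted p = 0.0975). Other settings carried it past the threshold: in RNA the adjusted p was 0.0318 under TMM scaling and 0.0426 with DESeq2, and in RPFs 0.0271 and 0.00674. It also passed in RNA without Aco1+/+ ZT12 replicate 2 (0.20), and in RPFs without Aco1-/- ZT5 replicate 2, Aco1-/- ZT12 replicate 1 or Aco1+/+ ZT5 replicate 1 (0.18 to 0.19).

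The time change of Igf1 RPFs passed within both genotypes of the Ireb2 line. Ireb2+/+ livers had 429, 454 and 401 CPM at ZT5 and 519, 575 and 579 CPM at ZT12 (log2 change 0.38, SE 0.097, adjusted p = 0.0194 by edgeR, 7.53% of all genes called). Ireb2-/- livers had 419, 434 and 445 CPM at ZT5 and 589, 567 and 566 CPM at ZT12 (0.41, adjusted p = 0.0161). In both genotypes every ZT12 liver lay above every ZT5 liver (of all genes, 27.1% and 23.7% did not overlap, in either direction). In Aco1-/- livers the change was -0.23 (adjusted p = 0.377), from 543, 611.5 and 459 CPM to 407, 479.7 and 494 CPM. The calls were lost without Ireb2+/+ ZT5 replicate 1 or 3 or ZT12 replicate 2 or 3 (0.34 to 0.38), and without Ireb2-/- ZT5 replicate 1 or 2 or ZT12 replicate 1 (0.38 to 0.41).

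The Igf1 mRNA has a long 3′ UTR, and 76.4% of its RNA counts fell there. The ratio of 3′ UTR to CDS counts in RNA was 1.16, 3.40 and 4.04 at ZT5 and 3.43, 4.07 and 5.19 at ZT12 (lowest, median and highest). It was higher at ZT12 in 4 of 4 genotypes and apart in 3, with a log2 change of 0.41 (exact permutation p = 8.75e-05). The median over 5087 genes was 0.0904, and 4.36% of them changed by at least as much. The low value of 1.16 came from the Ireb2+/+ ZT5 replicate 3 liver, in which 17.2% of all counts lay in 3′ UTRs, against 22.1% to 27.6% in the other livers. Without it the ZT5 values were 3.08 to 4.04, the change was 0.28 (exact permutation p = 0.0001625) and 7.41% of genes reached it. The 3′ UTR level in CPM rose by 0.55 on the log2 scale (exact permutation p = 1.25e-05) and by 0.46 without that liver. With all columns summed, Igf1 passed in RNA (0.52, adjusted p = 9.9e-07 by edgeR) and in RPFs (0.19, adjusted p = 0.02). As 0.179% of Igf1 RPFs lay in the 3′ UTR, TE is given for the CDS only, where its change was -0.01 (adjusted p = 0.994). The 3′ UTR ratio was looked at after seeing the data.

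Igfals, the acid-labile subunit that holds IGF1 in its large circulating complex, passed in no comparison with all mice. Its RNA level was 54.6, 110 and 170 CPM and its RPF level 143.7, 203 and 339 CPM over 24 livers. The log2 change from ZT5 to ZT12 was 0.15 in RNA (95% interval -0.11 to 0.42) and 0.19 in RPFs (0.0049 to 0.37, adjusted p = 0.11 by edgeR), and the RPF change passed without Aco1-/- ZT5 replicate 2 (0.25, adjusted p = 0.0196). The pair of Igfals windows with a STAT5 motif is among the stretches shown.

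Igfbp1 encodes the binding protein that responds to fasting and insulin, and its promoter stretch above holds the CAAAACA motif. In RPFs it was the most uneven of the 10 genes after Cish and Socs2, with RPF levels of 15.5 to 232 CPM and RNA levels of 4.99 to 57.2 CPM. The SD within groups was 0.854 on the log2 scale in RPFs, which 3.96% of all tested genes reached. In Aco1+/+ livers RNA was even at ZT5, at 11.9, 12.3 and 10.8 CPM, and was 57.2, 18.5 and 37.7 CPM at ZT12, while in Aco1-/- livers the 2 timepoints overlapped, at 48.3, 42.6 and 16.1 CPM and 13.2, 11.8 and 51.2 CPM. No Igfbp1 comparison passed over the 12 mice of a line. With the 6 Aco1+/+ mice alone, the RPF change from ZT5 to ZT12 was 1.51 (adjusted p = 0.0135 by edgeR). In Ireb2 livers at ZT5, RPFs were 43.1, 61.6 and 83.8 CPM in knockouts and 25.8, 23.0 and 15.5 CPM in controls, apart (15.9% of all genes), with a fold of 2.94 (95% interval 1.40 to 6.18, unadjusted p = 0.01, adjusted p = 0.539). Without the replicate 3 control the log2 change was 1.37 (adjusted p = 1.00).

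Igfbp2, another IGF-binding protein gene, was at 273, 453 and 675 CPM in RNA and 384, 702 and 1111 CPM in RPFs. It changed with time by -0.04 in RNA (95% interval -0.24 to 0.15) and 0.07 in RPFs (-0.16 to 0.30), with an adjusted p of 0.81 and 0.67 by edgeR. In Aco1 livers at ZT5 RNA was 364, 273 and 311 CPM in knockouts and 419, 572 and 369.5 CPM in controls, a fold of 0.694 that did not pass (unadjusted p = 0.00387, adjusted p = 1).

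Counted over all members, the comparisons of knockout with control gave few calls. In RNA, 0 of 40 passed (10 genes, both lines, both timepoints), with 7 at an unadjusted p under 0.05 and 0 with DESeq2. Of all genes, 0.0% and 0.00935% passed in the Aco1 line at ZT5 and ZT12, and 0.00935% and 0.0187% in the Ireb2 line. In RPFs 1 of 40 passed, Lifr, with 9 at an unadjusted p under 0.05, and of all genes 0.00935% and 0.299% passed in the Aco1 line and 0.0654% and 0.028% in the Ireb2 line. In TE 0 of 40 passed by edgeR and by DESeq2, with 4 at an unadjusted p under 0.05, and of all genes 0.00935%, 0.0935%, 0.00935% and 0.0% passed in the same order. The interaction of genotype and time passed for 0 of 20 in each of RNA, RPFs and TE by edgeR and DESeq2 (unadjusted 3, 3 and 2), and of all genes 0.0% passed save 0.028% in TE of the Aco1 line. Of all 10696 genes, in the order above, 399, 819, 603 and 450 had an unadjusted p under 0.05 in RNA. In RPFs these were 298, 1355, 817 and 815, and in TE 272, 718, 750 and 381. For the interaction they were 628 and 413 in RNA, 590 and 426 in RPFs and 508 and 562 in TE, Aco1 line first.

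In the Aco1 line at ZT5, 6 of 10 members did not overlap between knockout and control livers in RNA (Prlr and Igfbp1 higher, Lifr, Socs2, Cish and Igfbp2 lower in Aco1-/- livers), against 9.4% of all genes, and 3 of 10 did not in RPFs (Lifr, Socs2 and Cish), against 7.62%. With 3 livers against 3, the exact permutation test of a single gene cannot go below 0.1. The 6 genes share the same 6 livers and are not independent, and none passed the test across all genes. Socs2 and Cish RNA there rest on 1 to 6 CDS counts per Aco1-/- liver. At ZT12 in the same line 0 of 10 were apart in RNA (11.6% of all genes) and 4 of 10 in RPFs (20.4%). In the Ireb2 line 1 of 10 was apart at ZT5 in RNA, Lifr (11.6%), and 2 of 10 in RPFs, Lifr and Igfbp1 (15.9%). At ZT12 it was 2 of 10 in RNA, Lifr and Socs2 (9.77%), and 1 of 10 in RPFs, Lifr (10.6%). In TE, 1 and 2 of 10 were apart in the Aco1 line at ZT5 and ZT12 (8.75% and 11.1% of all genes) and 2 and 0 in the Ireb2 line (11.9% and 9.72%). Cell-type markers were called in 0 of these knockout comparisons. The 5 erythroid markers had a median log2 change of -1.77 in RNA and -1.64 in RPFs in Aco1-/- livers at ZT5, with summed RNA of 69.9 to 207.4 CPM against 199.9 to 210.6 CPM in controls and no marker at 0. Their part in the differences of the members there was not tested.

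Within genotypes, 4 of 40 time comparisons passed in RNA (Stat5b in 3 genotypes and Prlr in Aco1-/- livers) and 7 of 40 in RPFs (Stat5b in 3, Igf1 in 2, Ghr and Lifr in 1 each). Between 2.29% and 7.05% of all genes passed in RNA and between 5.73% and 12.1% in RPFs, with 6.64% in Aco1+/+ livers. In TE 0 of 40 passed by edgeR and by DESeq2, with 6 at an unadjusted p under 0.05, and 0.0187%, 0.15%, 0.533% and 0.00935% of all genes passed in Aco1+/+, Aco1-/-, Ireb2+/+ and Ireb2-/- livers. An unadjusted p under 0.05 in TE was met by 801, 861, 879 and 483 of 10696 genes, in the same order. Members with no overlap between timepoints numbered 5, 3, 3 and 5 of 10 in RNA in the same order, against 26.0%, 21.1%, 19.1% and 21.9% of all genes. In RPFs they numbered 4, 2, 3 and 3 of 10, against 27.1%, 27.2%, 27.1% and 23.7%, and in TE 3, 2, 2 and 1 of 10, against 15.7%, 11.4%, 12.4% and 11.6%.

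The order of the 8 group means separated few neighbours. For Stat5b the 4 ZT5 groups ranked above the 4 ZT12 groups in both assays, and in RPFs the step between them, from Ireb2+/+ at ZT5 to Ireb2+/+ at ZT12, was the only 1 of 7 neighbouring pairs that did not overlap. For Ghr the 4 ZT12 groups ranked above the 4 ZT5 groups in RNA, with all 7 neighbours overlapping. Prlr, Cish, Igf1, Igfals and Igfbp2 also had all 7 neighbours overlapping in RNA, and Lifr 5 of 7. Control livers of the 2 lines were not tested against each other, since the lines were bred and their libraries numbered separately. Lifr RNA at ZT5 was 652 ± 69.4 CPM (SD, n = 3) in Aco1+/+ livers and 418 ± 55.2 CPM in Ireb2+/+ livers, and Igfbp1 RPFs at ZT12 were 132.7 ± 42.0 CPM and 27.2 ± 4.06 CPM.

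Differences between livers of 1 group in RNA returned in RPFs for most members. After removal of group means, the RNA and RPF deviations correlated past an adjusted p of 0.05 for 6 of the 10 genes (Pearson's r over 24 livers of 0.864 for Cish, 0.858 for Prlr, 0.792 for Igfbp1, 0.788 for Lifr, 0.776 for Igfbp2 and 0.674 for Stat5b). Spearman's rho for these was 0.619 to 0.908, and r without the 2 farthest livers 0.582 to 0.826. For Ghr, Igf1, Igfals and Socs2 it did not pass (adjusted permutation p of 0.0615 to 0.501). In ZT5 livers alone none passed, although r was 0.875 for Prlr (adjusted permutation p = 0.0547), 0.841 for Cish and 0.807 for Igfbp2. In ZT12 livers alone these 6 passed, and Igf1 (r = 0.704, adjusted permutation p = 0.0482). The difference between the timepoints was not tested.

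Other genes whose level followed a member over the 24 livers are given as a description with no test. Group means were left in here, so differences between timepoints or genotypes enter r. RNA of Igf1 was most like that of Rab7 (Pearson's r = 0.768), Prps1l3 (0.764) and Hopx (0.754), and RNA of Socs2 like that of Alas1 (0.665), Onecut1 (0.659) and Casp8 (0.653). For members added after seeing the data, Stat5b RNA was most like Arap1 (0.915), Stra6l (0.899) and Coq8a (0.897), Cish RPFs like Arid5b (0.848), Zfp809 (0.848) and Onecut1 (0.838), and Igfbp1 RPFs like Alg1 (0.715), Slc25a25 (0.66) and Vnn3 (0.639). Onecut1, which encodes a liver transcription factor, stood in the lists of both SOCS family genes. All points share the 24 libraries and their depths.

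The wider pathway was read from 5 gene lists over the 24-liver time comparison. Of 25 tested GH signalling genes, 1 rose and 2 fell in RNA, and 2 rose and 7 fell in RPFs. Over all genes tested, 9.71% rose and 12.5% fell in RNA and 13.6% rose and 18.2% fell in RPFs, the shares against which the counts of each of the 5 lists are to be read. Pik3r1, a regulatory subunit of PI3 kinase, rose by 0.64 in RNA (SE 0.135, adjusted p = 0.00157 by edgeR), and the insulin receptor substrates fell, Irs1 by 0.52 (SE 0.143, adjusted p = 0.0101) and Irs2 by 0.97 (SE 0.255, adjusted p = 0.0107). The list's median log2 change was 0.0185, against -0.0384 over all genes. Of 9 tested genes of the IGF system, 1 rose in RNA, the binding protein gene Igfbp4 (0.43, SE 0.0756, adjusted p = 3.43e-05), and 0 fell, with a list median of -0.0806. In RPFs 1 rose and 2 fell.

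Of 20 tested GH-responsive and sex-biased liver genes, 6 rose and 1 fell in RNA (7 and 1 in RPFs), against 9.71% and 12.5% of all genes in RNA (13.6% and 18.2% in RPFs), with a median of 0.27. Foxa3, a liver transcription factor, rose by 1.06 (SE 0.105, adjusted p = 8.4e-10), as did Cebpb (0.92, SE 0.106, adjusted p = 2.49e-07), and Elovl3, a male-biased fatty acid elongase, fell by 2.37 (SE 0.187, adjusted p = 6.3e-08). Of 10 insulin and FOXO1 responsive genes, 6 rose and 1 fell in both assays, with a median of 0.49 in RNA. Foxo1 itself rose by 0.86 (SE 0.0937, adjusted p = 2.87e-09) and the gluconeogenic enzyme gene Pck1 by 0.87 (SE 0.175, adjusted p = 0.00163), and Pdk4, which restrains pyruvate oxidation, fell by 1.16 (SE 0.268, adjusted p = 0.00122). Of 11 cytokine receptor genes, 2 rose and 1 fell in RNA (4 and 2 in RPFs), with a median of 0.121. The interleukin receptor genes Il6ra and Il1r1 rose by 1.38 (SE 0.15, adjusted p = 4.15e-07) and 0.83 (SE 0.129, adjusted p = 1.81e-05), and the interferon receptor gene Ifnar2 fell by 0.29 (SE 0.0812, adjusted p = 0.00749). In the comparisons of knockout with control 0 genes of these lists were called.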

How the data were processed

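Liver RPF and total RNA libraries of 24 mice were read from 77 count files, 1 per sequencing run. By the study's methods, the authors trimmed adapters with cutadapt 3.5, quality-filtered reads, kept 24 to 35 nt footprints and 21 to 60 nt RNA fragments, removed rRNA and tRNA reads with Bowtie2 and aligned the rest to the mouse genome with STAR 2.70f. The authors deposited raw counts per gene in 5 unnamed columns. The counting tool, strand setting and column names are not given in the sources used here, and the columns were read as 5′ UTR, CDS and 3′ UTR from their values. A 4th was 0 throughout and a 5th stayed unidentified.

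Runs of a library were summed (14 RNA and 15 RPF libraries had 2 runs). Genes passing filterByExpr (minimum count 10, minimum total 15) were tested with edgeR 4.0.16 (upper-quartile scaling, robust quasi-likelihood F test, Benjamini-Hochberg over 10696 genes, threshold 0.05), with 1 estimate of spread per gene over all groups in a fit, 24 mice for the time comparison and the 12 mice of a line otherwise. SEs were derived from each log2 change and its F value, and intervals are 95%. TE was tested in 1 model over both assays with a term for the mouse. Log2 CPM used a prior count of 0.5. Single values were tested by exact two-sided permutation of time within genotypes (160000 relabellings), and correlations by 100000 permutations within groups. R 4.3.3, limma 3.58.1, DESeq2 1.42.0, Python 3.11.15 and SciPy 1.17.1 were used. The 24-mouse time fits of RNA and RPFs were tested on simulated data, and the fits within a line and of TE were not.

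Alternatives were TMM scaling, DESeq2, no filter, a minimum count of 50, the first run alone, all columns summed, only the 6 mice compared, a replicate block and leaving out each mouse. Replicates are separate mice. The members and gene lists were chosen with earlier results of these data known. All 10 members are named, and from each list the up to 2 most significant genes per direction in RNA. Igf2, Pappa, Pappa2, Stc2, Cux2, Sult3a1, Sult2a1, A1bg, Cd3e and Nkg7 were not analysed here. Intervals and detection limits cover counting error only where they rest on counts of 1 library.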

Additional observations from a re-analysis of the deposited data

Results flagged for a closer look

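For 7 of the 10 genes, RNA counts fell in a count column whose meaning is not given and which no comparison above uses, unless all columns were summed. Each held more than the 3 counts that a count of 0 allows. As a percent of all RNA counts of the gene, pooled over 24 libraries, the column held 31.8% for Cish, 24.8% for Igfals, 19.1% for Prlr, 12.0% for Igfbp2, 6.35% for Ghr, 3.53% for Socs2 and 2.47% for Stat5b. For Lifr, Igf1 and Igfbp1 it held 0, and over all genes 11.7%. In RPFs it held 13.8% for Prlr, 12.4% for Cish and 11.4% for Igfals.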

How the results depend on the processing

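Counts of members called moved under these alternatives. With only the 6 mice compared, the comparisons of knockout with control gave 1 call in RNA (0 with all 12 mice) and 2 in RPFs (1), both new ones Cish, and the time comparisons within genotype 1 in TE (0), Igfbp2, while 5 time calls within genotypes were lost (Prlr and Stat5b RNA and Stat5b and Ghr RPFs in Aco1-/-, Lifr RPFs in Ireb2-/-). Time calls gained in that setting were Cish in RNA and RPFs and Igfbp1 in RPFs, all in Aco1+/+ livers. DESeq2 and the first run alone gave 1 call each within genotypes in RNA (4), and the first run alone 3 in RPFs (7). TMM, DESeq2 and all columns summed each gave 4 calls over 24 mice in RPFs (2), with Igf1 and Lifr beside Stat5b and Ghr. In RNA over 24 mice each of them called Igf1 beside Stat5b and Ghr. A minimum count of 50 also called Igf1 in RPFs (adjusted p = 0.0488 by edgeR). With all columns summed, 1 passed in TE over 24 mice and 1 within genotypes (0 each), both Igf1, whose 3′ UTR counts then enter its RNA, and TMM, no filter and all columns each gave 1 call in TE for knockout against control (0), Lifr. Igf1 RNA with all columns summed also passed from ZT5 to ZT12 in Aco1+/+ (0.57, adjusted p = 0.0139 by edgeR), Aco1-/- (0.48, 0.0457) and Ireb2+/+ livers (0.54, 0.0317). At a minimum count of 50, Cish RNA passed in Aco1-/- livers (3.15, adjusted p = 0.0449). Of correlated pairs, 0 passed in ZT5 or ZT12 alone (1), and of RNA with RPF 0 in ZT5 alone (6). Leaving out 1 mouse moved the calls to 2 to 3 (RNA) and 2 to 5 (RPF) over 24 mice, 0 to 1 for the knockouts in each of RNA, RPF and TE, 2 to 5 (RNA), 4 to 7 (RPF) and 0 to 1 (TE) within genotypes, and 0 to 1 for the interaction in RNA. The cause was not tested. Signs turned as follows. Prlr RPFs (-0.02) became 0.0017 with TMM, 0.0103 with DESeq2 and 0.0015, 0.00734, 0.0128, 0.0158, 0.0169, 0.0203, 0.0218 and 0.0784 without 1 mouse, the last without Aco1-/- ZT5 replicate 2 (lowest -0.109). Cish RPFs became -0.119 without Aco1-/- ZT12 replicate 2, Igfbp1 -0.176 (RNA) and -0.168 (RPF) without Aco1-/- ZT12 replicate 3 and -0.00658 (RNA) without Ireb2-/- ZT12 replicate 2, and Igfbp2 RNA 0.0107 without Aco1+/+ ZT5 replicate 2. At the other end, these changes reached 1.395 for Cish RPFs, 0.221 (RNA) and 0.343 (RPF) for Igfbp1 and -0.101 for Igfbp2 RNA. The r of Ghr with Igf1 became 0.168 and with Prlr 0.067 in ZT12 alone, and that of Socs2 RNA with RPF -0.209 in ZT5 alone. Replicate numbers do not pair the mice (mean r of same-numbered mice -0.0768 to 0.0874), and the fit with a replicate block gave the same counts, 2 in RNA and 2 in RPFs over 24 mice, 1 in RPFs for the knockouts, and 4 and 7 within genotypes. Socs2 had 127 CDS counts in RNA and 77 in RPFs over all libraries, and Cish 249 in RNA, the lowest depths among the 10 genes.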
